A study of Mus musculus with 51 samples.

Results

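The comparison described here sets 3 femur RNA-seq libraries of Gulo knockout mice after withdrawal of vitamin C (VitC+/-) against 3 femur libraries of wild type mice (WT), together 6 of the 51 samples of the series. The libraries were chosen by their titles. All mice were 20 weeks old, on the C57BL/6 background and fed chow without VitC. Gulo knockout mice (Gulo-/-, allele Gulotm1Mae) cannot make VitC, whereas WT mice make their own. The VitC+/- mice had VitC at 3.3 g/L in the drinking water until week 15 and none for the last 5 weeks. A second knockout group (VitC+, 3 libraries) had the same water until week 20 and is used to say which differences from WT were also found against supplemented mice of the same genotype. RNA came from flushed and minced femurs, so each library mixes bone cells with the blood, fat and vessel cells left in the bone, and fewer cells of a type and less RNA per cell cannot be told apart.

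VitC is a cofactor of the prolyl and lysyl hydroxylases that mature collagen and of demethylases of DNA and histones. Osteoblasts lay down the collagen matrix of bone and become osteocytes once they are enclosed in it. Osteoclasts are large cells of the monocyte lineage that dissolve mineral with acid and digest the matrix with proteases. They form when RANKL (gene Tnfsf11), carried by cells of the osteoblast and stromal lineage, binds its receptor RANK (gene Tnfrsf11a) on precursors that also receive M-CSF (gene Csf1). Marrow makes neutrophils, monocytes, B cells, red cells and platelets in the same space.

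Values are RPKM (reads per kilobase of transcript, relative to the depth of the library), divided by a factor per library for comparability, and are given for replicates 1, 2 and 3 in this order. Log2 fold changes were computed after adding 0.5 to each value and so understate changes of low genes, and their error is the standard error (SE) of limma over all 9 libraries. Gulo itself (chr14:65986787-66009210) was close to the limit of detection. WT libraries had a deposited RPKM of 0.522, 0.486 and 0, VitC+ libraries 0.180, 0.0352 and 0.0294, and VitC+/- libraries 0.0126, 0.0141 and 0.0186. These values stand for 9, 39 and 0 reads in WT, 14, 3 and 3 in VitC+ and 1, 1 and 2 in VitC+/-. VitC+ replicate 1, a knockout library, thus had more reads of Gulo than WT replicate 1, at a lower RPKM. No read of Gulo was found in the library labelled WT replicate 3, although 3 reads would have given 0.0335, and counts against WT that moved by over 1.5 times without it are given with and without it. Depth, read from the steps between low values, was 7611000 reads in WT replicate 1 and 31192000 to 47520000 in the other 8 libraries. On the first principal component, with 44.8% of the variance, WT lay between -43.7 and -36.6, VitC+ between -21.7 and -2.21 and VitC+/- between 37.1 and 61.3. Xist was at 31.0 to 53.6 in all 9 libraries and no Y-linked gene of the list exceeded 0.219.

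Femur RNA of VitC+/- mice differed from that of WT mice, which have another genotype as well as another source of VitC, over a large part of the genes measured. Of 12571 genes tested, 2002 were lower (15.9%) and 1929 higher (15.3%) in VitC+/- than in WT at an adjusted p under 0.05. Among them 821 fell and 1037 rose by at least 2-fold. The 3 VitC+/- libraries did not overlap the 3 WT libraries for 1940 of the lower and 1881 of the higher genes. Over all genes tested, significant or not, they lay below all WT libraries for 21.3% and above all WT libraries for 21.4%. The count of 3931 was 2273 without the library labelled WT replicate 3 and 2395 without VitC+/- replicate 1. Against VitC+ the same VitC+/- libraries gave 946 lower (7.53%) and 745 higher (5.93%) genes. That total of 1691 was 489 without VitC+/- replicate 1, 497, 575 and 697 without VitC+ replicates 2, 3 and 1, and 1107 without the library labelled WT replicate 3. The p-values measure the spread between these libraries, which the study describes as biological triplicates.

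Genes that carry out bone resorption were higher in VitC+/- than in WT. Of 20 osteoclast effector genes, 13 rose against WT, none fell, and the median log2 fold change was 1.51 beside 0.01 for all genes tested. All 20 had a log2 fold change above 0, from 0.19 to 2.84, and for 16 of them every VitC+/- library was above every WT library, beside 21.4% of all genes tested. The count was between 12 and 15 in every alternative, left-out libraries included. Summed over the list, the level was 1133 to 1219 in WT, 2334 to 3098 in VitC+ and 3495 to 7227 in VitC+/-.

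Ctsk, cathepsin K, is the main collagen-degrading protease of osteoclasts. It was at 366, 311 and 320 in WT, 917, 975 and 1019 in VitC+ and 2721, 1444 and 3397 in VitC+/-, a log2 fold change of 2.84 ± 0.28 against WT (adjusted p = 0.000418). The 3 groups did not overlap, with VitC+ in between, and Ctsk also rose by 1.29 against VitC+ (adjusted p = 0.0209). Acp5, the tartrate-resistant acid phosphatase used to stain osteoclasts, was at 289.8, 273 and 317 in WT, 648, 819.7 and 1083 in VitC+ and 1595, 834 and 1929.6 in VitC+/- (2.22 ± 0.31, adjusted p = 0.00154). Its VitC+ and VitC+/- libraries overlapped, and the difference was 0.72 against VitC+ (adjusted p = 0.147). Mmp9, a gelatinase of osteoclasts and neutrophils, was at 148, 173 and 197 in WT and 843, 595 and 1042 in VitC+/- (2.23 ± 0.25, adjusted p = 0.000627). Every VitC+/- library was above every WT library, and Mmp9 rose by 1.37 against VitC+ (adjusted p = 0.0111) as well.

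The acid-secreting machinery was uneven. Clcn7, the chloride transporter of the resorbing membrane, was at 9.78, 11.5 and 9.26 in WT and 31.3, 24.6 and 29.9 in VitC+/- (log2 fold change 1.45, adjusted p = 0.000529). Tcirg1, the a3 subunit that brings the proton pump to this membrane, was at 91.2, 65.8 and 73.4 in WT and 262, 157 and 153 in VitC+/- (log2 fold change 1.28, adjusted p = 0.00817). Both rose against VitC+ too, by 0.83 and 1.08. Atp6v0d2, a pump subunit of osteoclasts that also serves cell fusion, rose against WT by 1.57 (adjusted p = 0.00369) but was at 45.98, 40.4 and 42.6 in VitC+ and 59.9, 28.8 and 66.03 in VitC+/-, a difference of 0.17 against VitC+ (adjusted p = 0.707). Of the 15 general V-ATPase subunits and accessory proteins, 1 passed the test, Atp6v0a1 with 0.52 (adjusted p = 0.0255), and the median was 0.27. That count was 8 after quantile normalization, 5 without VitC+/- replicate 2 and 0 without the library labelled WT replicate 3 or VitC+/- replicate 1. Car2, the carbonic anhydrase that supplies protons, had 0.62 and did not pass (adjusted p = 0.0832), and neither did Ostm1, the partner of Clcn7, with 0.31 (adjusted p = 0.118).

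Effectors of fusion, adhesion and hormone response passed in part. Dcstamp and Ocstamp, both needed for precursors to fuse, rose by 2.20 and 2.09 against WT. Dcstamp was at 4.15, 3.41 and 3.66 in WT, 9.60, 12.3 and 12.4 in VitC+ and 21.02, 12.2 and 26.5 in VitC+/-, so that the last 2 groups overlapped. Calcr, the calcitonin receptor of mature osteoclasts, was at 0.211, 0.380 and 0.189 in WT, 0.650, 0.413 and 0.598 in VitC+ and 3.02, 2.25 and 3.10 in VitC+/- (log2 fold change 2.11, adjusted p = 0.000476). Its VitC+/- libraries were above all 6 others, with 1.64 against VitC+ (adjusted p = 0.00368). Itgav, the integrin chain that anchors osteoclasts to matrix, rose by 1.91 (adjusted p = 0.0024), while its partner Itgb3 had 0.68 with overlapping libraries (adjusted p = 0.106). Siglec15, Slc4a2 and Mmp14 rose by 2.01, 1.14 and 1.77. Oscar, Snx10, Plekhm1 and Rab38 did not pass the test, with 0.69, 0.59, 0.19 and 0.36.

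The signals that start osteoclast formation differed most clearly for RANKL. Tnfsf11 was at 1.58, 1.73 and 2.10 in WT, 4.25, 2.67 and 5.09 in VitC+ and 16.1, 17.1 and 18.1 in VitC+/-, a log2 fold change of 2.94 ± 0.21 against WT (adjusted p = 0.000142). Its 3 VitC+/- libraries lay close together and above all others, and the rise against VitC+ was 2.004 (adjusted p = 0.00132). Tnfrsf11b, the decoy receptor osteoprotegerin that holds RANKL back, was low and varied within groups, with 1.35, 0.365 and 0.758 in WT and 1.89, 1.32 and 5.11 in VitC+/- (1.20, adjusted p = 0.157). Csf1 was at 12.2, 9.13 and 8.21 in WT, 20.7, 17.3 and 26.5 in VitC+ and 24.4, 17.3 and 35.4 in VitC+/-. It rose against WT (1.30, adjusted p = 0.00697) and had 0.21 against VitC+ (adjusted p = 0.627). Il34, the other ligand of the M-CSF receptor, had 0.59 against WT and did not pass (adjusted p = 0.16). Sphk1, which makes the lipid signal sphingosine-1-phosphate, was at 7.80, 4.78 and 4.98 in WT and 31.1, 19.1 and 22.1 in VitC+/- (log2 fold change 1.95, adjusted p = 0.00287). Wnt10b and Ephb4, both linked to signalling to osteoblasts, rose against WT by 2.14 and 1.02 and had 0.87 and 0.18 against VitC+, where neither passed. In this list of signals 5 of 10 genes tested rose against WT and 2 against VitC+, or 1 without VitC+ replicate 2, VitC+/- replicate 1 or VitC+/- replicate 3.

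**Figure D1:**
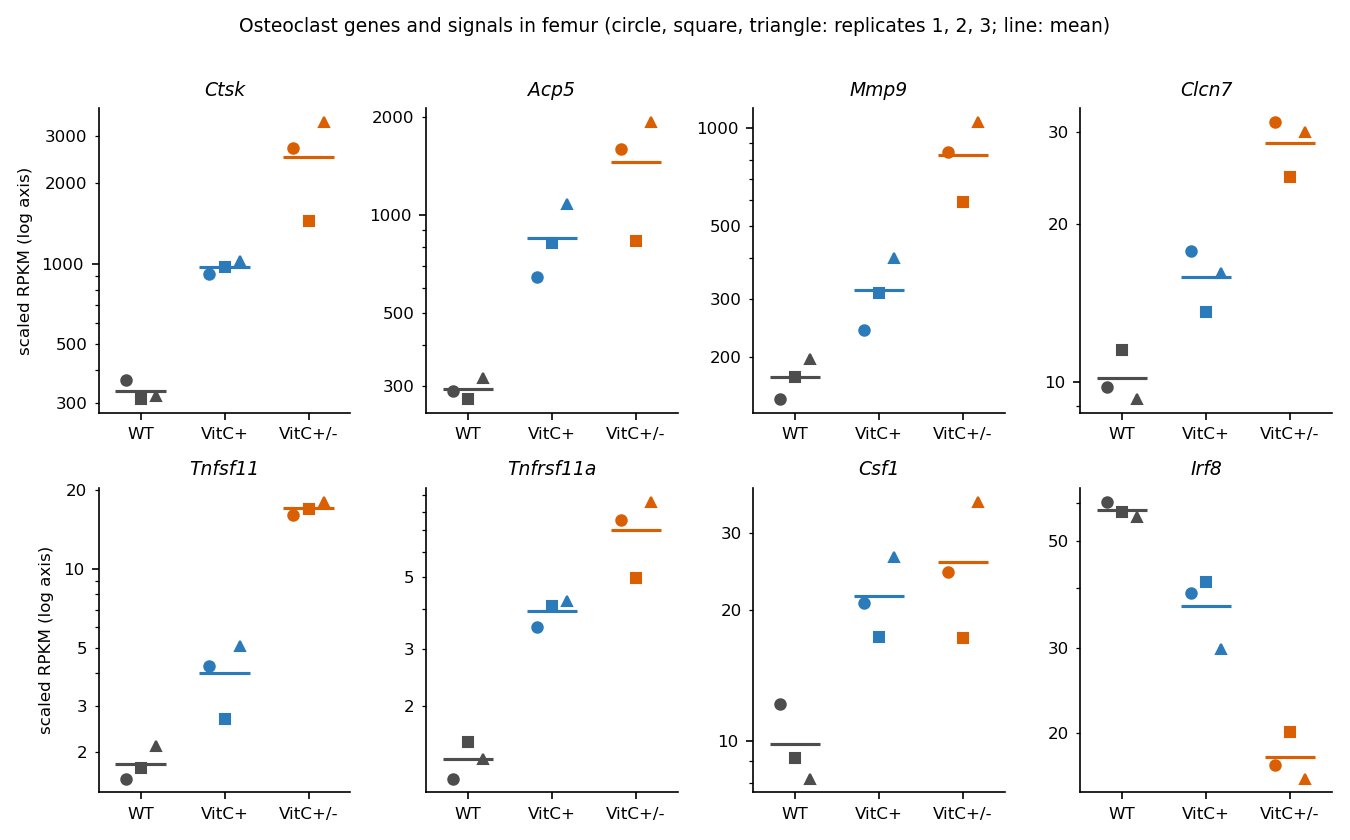
Scaled RPKM (log axis) of 8 genes of osteoclasts and their signals in the 9 femur libraries, by group on the horizontal axis. Symbols are replicates 1, 2 and 3 and the line is the mean of the group, and in each panel the VitC+ mean lies between the other means, with the 3 VitC+/- points above the 3 WT points in 7 panels and below them in that of Irf8.

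Receptors and transcription factors of the osteoclast lineage rose more often than they fell. Of 19 such genes 11 rose and 4 fell against WT. Over all genes tested 15.3% were higher and 15.9% lower, so the rises were well above that share and the falls near it. Tnfrsf11a, the receptor of RANKL, was at 1.19, 1.55 and 1.37 in WT, 3.50, 4.07 and 4.22 in VitC+ and 7.55, 4.98 and 8.59 in VitC+/- (1.99 ± 0.21, adjusted p = 0.000474), and the 3 groups did not overlap. Csf1r, the receptor of M-CSF, was at 33.4, 40.6 and 30.3 in WT and 90.1, 61.8 and 97.4 in VitC+/- (log2 fold change 1.23, adjusted p = 0.00203). Nfatc1, the master regulator that RANKL turns on, was at 6.30, 6.69 and 6.52 in WT and 14.9, 13.1 and 22.1 in VitC+/- (log2 fold change 1.26, adjusted p = 0.00186). These 3 genes also rose against VitC+, by 0.74, 0.70 and 0.66. Fos and Fosl2, subunits of AP-1, rose by 2.58 and 1.03 against WT, the kinase gene Src by 1.89 and Jdp2, a partner of AP-1, by 1.48. Against VitC+ 7 of the 19 rose, 3 without the library labelled WT replicate 3, VitC+ replicate 1, VitC+/- replicate 1 or VitC+/- replicate 3, 2 without VitC+ replicate 2 and 1 without VitC+ replicate 3.

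The 4 genes that fell were Irf8, Tfec, Tyrobp and Fcer1g. Irf8, a factor of monocytes and dendritic cells that restrains Nfatc1, was at 60.4, 57.6 and 56.01 in WT, 39.1, 41.1 and 29.9 in VitC+ and 17.2, 20.1 and 16.1 in VitC+/- (-1.68 ± 0.15, adjusted p = 0.000256). Its 3 groups did not overlap, and the log2 fold change was -1.02 against VitC+ (adjusted p = 0.0052). Tyrobp and Fcer1g, the adaptor proteins of costimulation in osteoclasts and of receptors in other myeloid cells, had -0.74 and -0.98 against WT. Tfec, a relative of Mitf, had -1.66, and Mitf itself -0.28 with overlapping libraries.

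Bone formation genes did not move together. Over all genes tested, 15.9% were lower and 15.3% higher than WT, and 7.53% were lower and 5.93% higher than VitC+. Of 25 osteoblast and osteocyte genes tested, 3 fell and 3 rose against WT, with a median of -0.26. Against VitC+ 13 fell and 1 rose, with a median of -1.88. The count of falls against WT was 7 without WT replicate 2. That of rises against WT was 6 without WT replicate 1 and 1 without the library labelled WT replicate 3. Against VitC+ 8 fell without VitC+ replicate 2 or VitC+ replicate 3 and 6 without VitC+/- replicate 1. The 3 that fell against WT were Bglap, Bglap2 and Phex. Bglap, osteocalcin of mature osteoblasts, was at 1319.9, 139 and 481 in WT, 3594, 1110.4 and 1466 in VitC+ and 11.2, 8.15 and 8.75 in VitC+/-, the largest fall among the genes named by size (-5.51 ± 0.71, adjusted p = 0.00115), and -7.53 against VitC+. Bglap2, its neighbour, was at 96.2, 27.6 and 31.1 in WT and 3.32, 1.49 and 2.74 in VitC+/- (-3.92). Bglap, Bglap2 and Bglap3 are nearly identical copies, so how reads were split between them is uncertain. Phex, a membrane peptidase of osteocytes that limits phosphate loss, was at 8.03, 3.97 and 5.48 in WT, 12.9, 17.9 and 27.4 in VitC+ and 3.05, 2.44 and 2.71 in VitC+/- (log2 fold change -0.92, adjusted p = 0.0398).

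The 3 that rose were Spp1, Ibsp and Ank. Spp1, osteopontin, a matrix protein of osteoblasts and osteoclasts, was at 545, 343 and 489.8 in WT, 1362, 1448 and 1411 in VitC+ and 4203, 2287 and 4139 in VitC+/- (2.92 ± 0.28, adjusted p = 0.000344), and rose by 1.28 against VitC+ (adjusted p = 0.0191). Ibsp, bone sialoprotein, was at 304, 122 and 213 in WT, 419.9, 611 and 949 in VitC+ and 957, 319 and 1202 in VitC+/- (log2 fold change 1.84, adjusted p = 0.026). VitC+/- replicate 2 was just above the highest WT library, and the difference was 0.20 against VitC+ (adjusted p = 0.829). Ank, which exports pyrophosphate, had 1.41 against WT and 0.32 against VitC+.

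Another 10 genes of the list fell against VitC+ and did not pass against WT. Their log2 fold changes against WT lay between -1.50 and 0.30 with a median of -0.68, and for 9 of them VitC+/- and WT libraries overlapped. Of these, Dmp1, an osteocyte matrix protein, was at 41.1, 20.7 and 20.6 in WT, 62.6, 85.1 and 90.4 in VitC+ and 29.8, 28.98 and 38.6 in VitC+/-, with 0.30 against WT (adjusted p = 0.423) and -1.27 against VitC+ (adjusted p = 0.0185). Sost, the osteocyte Wnt inhibitor sclerostin, was at 7.42, 3.78 and 3.34, 36.3, 17.5 and 10.4 and 4.75, 6.94 and 3.56 in the same order of groups (0.10 and -1.84). Dkk1, another Wnt inhibitor, had -0.48 against WT and -2.12 against VitC+. Outside these 10, Col1a1, the main collagen of bone, was at 655, 321 and 479 in WT, 2316, 1331 and 2892 in VitC+ and 512, 101 and 1364 in VitC+/-. It passed neither test (-0.17 and -2.32, adjusted p = 0.889 and 0.0769), and its VitC+/- libraries spread more widely than the WT libraries. The difference of VitC+ from WT had a median of 1.64 over these 25 genes, and none passed that test, while 13 did without WT replicate 1.

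Of 11 chondrocyte genes tested, 2 passed against WT, and both were collagens of cartilage that fell, while 1 gene also rose without VitC+/- replicate 2. The share lower than WT over all genes tested was 15.9%. Col11a2 was at 73.7, 26.3 and 59.3 in WT, 246, 125 and 279 in VitC+ and 8.32, 6.78 and 11.7 in VitC+/- (-2.41 ± 0.41, adjusted p = 0.0032), and its 3 groups did not overlap. Col2a1 was at 77.6, 33.9 and 43.7 in WT and 16.7, 13.5 and 8.83 in VitC+/- (log2 fold change -1.91, adjusted p = 0.00807). Chad and Col10a1 reached 134 and 43.3 in VitC+ replicate 3 and at most 6.60 and 3.48 in the WT and VitC+/- libraries.

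**Figure D2:**
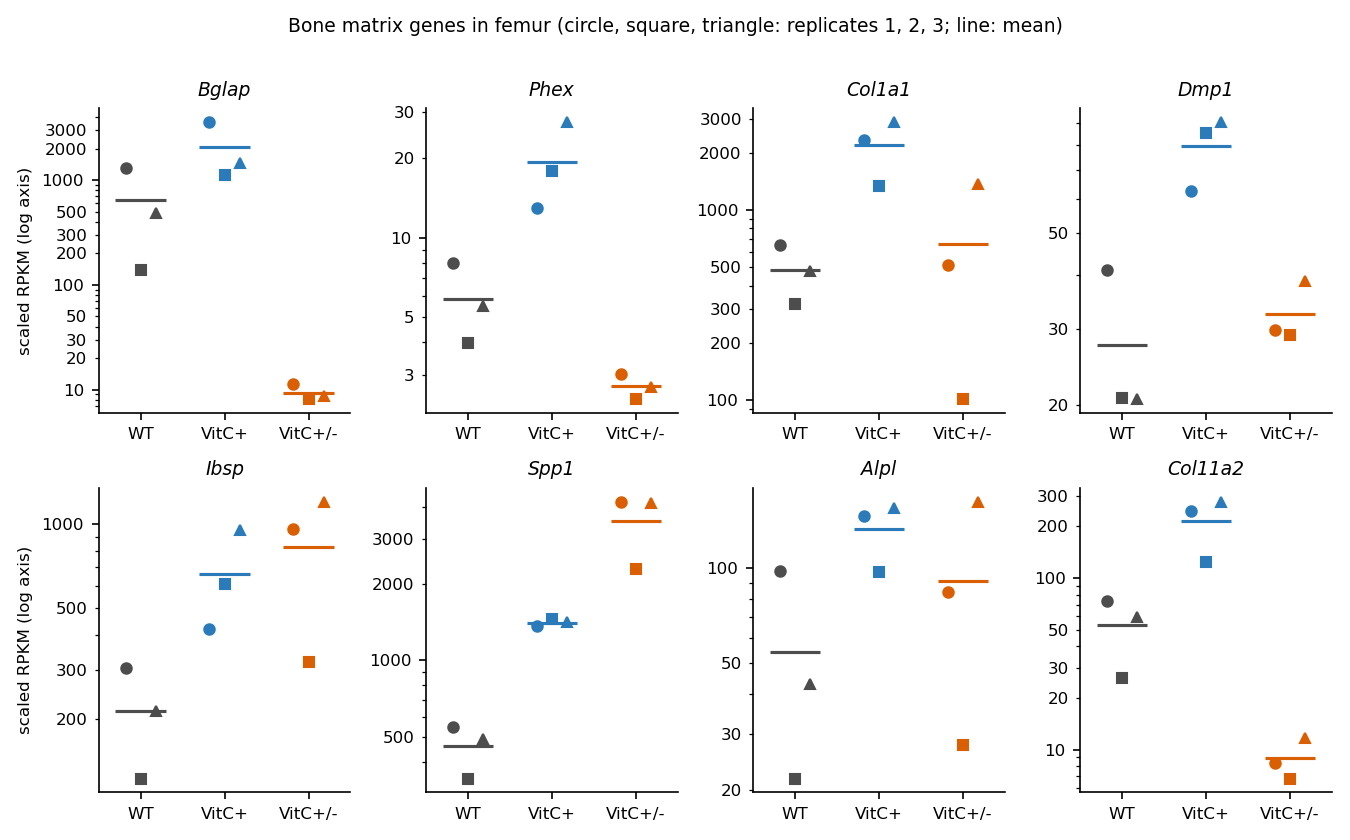
Scaled RPKM (log axis) of 8 matrix genes in the 9 femur libraries, by group on the horizontal axis, with replicates 1, 2 and 3 as symbols and the group mean as a line. In Bglap, Phex and Col11a2 the VitC+/- points lie below all others, in Spp1 above all others, and in Dmp1 and Col1a1 they overlap the WT points.

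Of 29 genes for collagens of bone and their processing, 9 rose and none fell against WT, and none of the 9 passed against VitC+. These were Col5a1, Col12a1, P4ha2, Plod1, Lox, Loxl1, Loxl3, Bmp1 and Adamts2. Lox, the enzyme that cross-links collagen, was at 18.1, 6.17 and 12.7 in WT, 30.003, 32.4 and 57.3 in VitC+ and 57.7, 23.3 and 156 in VitC+/- (log2 fold change 2.35, adjusted p = 0.0197), with 0.63 against VitC+ (adjusted p = 0.527). Adamts2, which removes the N-terminal propeptide of procollagen, was at 8.92, 6.43 and 6.59 in WT, 22.3, 13.2 and 24.3 in VitC+ and 25.7, 21.95 and 51.2 in VitC+/- (log2 fold change 2.01, adjusted p = 0.00276). The VitC-dependent enzymes of the list were split, with P4ha2 and Plod1 at 2.20 and 1.11 past the threshold and P4ha1, P4ha3, Plod2 and Plod3 at 0.48, 1.51, 0.56 and -0.34 not past it. VitC+/- replicate 2 was the lowest of its group for all 29 genes. The count was 3 without the library labelled WT replicate 3, 4 without WT replicate 2 or VitC+/- replicate 1, 6 with 2 falls without VitC+/- replicate 3, and 16 and 18 without WT replicate 1 and VitC+/- replicate 2.

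Neutrophil genes were lower in VitC+/- than in WT at every stage of maturation listed. Neutrophils fill their primary granules as promyelocytes, their secondary granules as myelocytes, and gain motility and chemokine receptors last. Against WT 7 of 8 primary granule genes fell (median -1.74), 8 of 10 secondary granule genes (median -1.88) and 12 of 13 genes of mature cells (median -2.11), and none of the 31 rose. Against VitC+ the counts were 0, 2 and 6, with medians of -0.52, -1.01 and -1.22. The primary granule count there was 1 without VitC+/- replicate 2, and that of secondary granules was 1 without VitC+ replicate 2 or VitC+/- replicate 1 and 4 without VitC+/- replicate 2. That of mature cells was 0 without VitC+ replicate 2 or VitC+/- replicate 1, 1 without VitC+ replicate 1 or VitC+ replicate 3, 2 without VitC+/- replicate 3 and 10 without VitC+/- replicate 2. Without the library labelled WT replicate 3 the counts against WT were 4, 4 and 11, and the primary granule count was also 4 without WT replicate 2 or VitC+/- replicate 1.

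Among the primary granule genes, Mpo, myeloperoxidase, was at 814, 1513 and 1034 in WT, 422, 711 and 439 in VitC+ and 418, 630.2 and 214 in VitC+/- (log2 fold change -1.50, adjusted p = 0.0199). Elane, neutrophil elastase, was at 631, 1883 and 1281 in WT, 335, 756 and 509 in VitC+ and 294, 546 and 196 in VitC+/- (log2 fold change -1.86, adjusted p = 0.0181). In both genes the VitC+ and VitC+/- libraries overlapped, and the differences between these groups were -0.41 and -0.68 (adjusted p = 0.525 and 0.372). Prtn3, Prss57 and Cebpe fell too, with log2 fold changes of -1.79, -1.91 and -1.93 against WT. Gfi1, a repressor in early granulocytes, had -1.15 and did not pass (adjusted p = 0.0578).

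Ltf, lactoferrin of secondary granules, was at 812, 1417 and 1288 in WT, 506, 796 and 609 in VitC+ and 154, 202 and 75.5 in VitC+/- (-3.09 ± 0.36, adjusted p = 0.000759). It was below VitC+ in every library as well (-2.23, adjusted p = 0.00731). Camp and Ngp, antimicrobial granule proteins, had -2.09 and -1.86 against WT, and Chil3 had -0.24 (adjusted p = 0.704). The calprotectin subunits S100a8 and S100a9 were the most abundant of all listed genes. S100a9 was at 22056, 32597 and 32950 in WT, 13170, 20262 and 14378 in VitC+ and 7215, 9559 and 2819 in VitC+/- (log2 fold change -2.31, adjusted p = 0.00655), and S100a8 at 17445, 22133 and 22865, 10099, 15321 and 10444 and 5515, 7249 and 2277 (log2 fold change -2.20, adjusted p = 0.00597). Cxcr2, the receptor with which neutrophils leave the marrow, was at 27.4, 37.4 and 43.5 in WT and 4.69, 12.1 and 5.89 in VitC+/- (log2 fold change -2.27, adjusted p = 0.00181) and had -1.58 against VitC+ (adjusted p = 0.0171). Csf3r, the G-CSF receptor, had -1.79 against WT and -1.17 against VitC+ (adjusted p = 0.00711 and 0.0645).

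More monocyte and macrophage genes fell than rose. Of 18 tested 9 fell and 2 rose against WT, with 4 rises without WT replicate 2. Over all genes tested 15.9% were lower and 15.3% higher than WT, and 2 rises of 18 did not exceed that share. Ccr2, the chemokine receptor of inflammatory monocytes, was at 74.5, 62.8 and 91.4 in WT, 55.7, 62.999 and 34.99 in VitC+ and 13.2, 12.6 and 16.2 in VitC+/- (-2.40 ± 0.23, adjusted p = 0.00035). Cx3cr1, the receptor of patrolling monocytes, was at 11.1, 8.15 and 6.82 in WT, 10.6, 8.94 and 9.07 in VitC+ and 1.21, 1.24 and 1.68 in VitC+/- (log2 fold change -2.27, adjusted p = 0.000233), and its WT and VitC+ libraries overlapped. Lyz2, lysozyme of neutrophils and monocytes, was at 1803, 2464 and 1769.5 in WT and 404, 522 and 373 in VitC+/- (log2 fold change -2.21, adjusted p = 0.00035). Ly6c2 fell against WT (-1.58) with -0.36 against VitC+ (adjusted p = 0.476). The 2 that rose were Csf1r, given above, and Cd68, a lysosomal protein of macrophages and osteoclasts, at 52.5, 58.2 and 40.1 in WT and 112, 77.9 and 144 in VitC+/- (log2 fold change 1.11, adjusted p = 0.00647). The complement genes C1qa, C1qb and C1qc, marks of resident macrophages, had 0.22, 0.59 and 0.50 with overlapping libraries, and Vcam1 had -0.27.

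B-cell precursor genes fell against both controls. Of 18 tested, 12 fell and none rose against WT (median -1.75), and 11 fell against VitC+ (median -1.90). The count against WT was 9 to 12 with 1 library left out, and that against VitC+ was 4 without VitC+ replicate 2 or VitC+/- replicate 1 and 5 without VitC+ replicate 3. Dntt, the polymerase that adds bases at antibody gene junctions, was at 10.8, 5.09 and 12.6 in WT, 3.76, 10.9 and 6.46 in VitC+ and 0.446, 0.157 and 0.312 in VitC+/- (-3.56 ± 0.40, adjusted p = 0.000627). Vpreb3, of the pre-B cell receptor complex, was at 26.6, 6.20 and 39.4 in WT, 15.7, 30.2 and 31.5 in VitC+ and 0.696, 0.911 and 0.870 in VitC+/- (log2 fold change -3.87, adjusted p = 0.00182). In both genes WT and VitC+ overlapped and every VitC+/- library was below every other. Rag1, of the recombinase, was at 1.79, 0.660 and 1.92 in WT and 0.00419, 0.00913 and 0.00907 in VitC+/- (log2 fold change -1.87, adjusted p = 0.00639). WT replicate 2 had the lowest level of its group for 14 of the 18 genes. Ebf1, Sox4, Lef1, Il7r and Erg did not pass, with 0.62, 0.56, 0.15, -0.42 and -0.30. From which cells the RNA of the listed genes came was not tested.

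Later B cells and plasma cells followed in part. Of 14 genes tested 8 fell and 3 rose against WT. Over all genes tested 15.9% were lower and 15.3% higher, shares that also stand beside the other counts of this paragraph. The 3 rises were near that share. Fcrla was at 10.1, 3.21 and 10.4 in WT and 0.372, 0.600 and 0.548 in VitC+/- (log2 fold change -2.91, adjusted p = 0.00155), Ms4a1, which encodes CD20, had -1.05, and Jchain, which joins IgA and IgM units and is listed as Igj, had -1.65. The 3 that rose were Sdc1 (2.50), Prdm1 (1.42) and Cd83 (1.03), and the cells they came from were not tested. The count of falls was 5 without the library labelled WT replicate 3, VitC+/- replicate 1 or VitC+/- replicate 3. Il7, the cytokine that B-cell precursors need, was at 3.34, 0.988 and 1.19 in WT, 2.17, 1.62 and 2.56 in VitC+ and 0.474, 0.234 and 0.505 in VitC+/- and fell (log2 fold change -1.25, adjusted p = 0.0258), a call lost without VitC+/- replicate 1 or VitC+/- replicate 2. It is one of 16 genes listed for the stromal niche, of which 6 rose and 1 fell against WT (median 0.57), with 2 falls without VitC+/- replicate 3. The 6 that rose were Kitl (1.33), the stem cell factor, Csf1, Ebf3 (0.69), Lpl (2.06), Pdgfra (1.31) and Pdgfrb (1.77). Of T cell and NK genes 7 of 16 fell against WT, with 4 without WT replicate 1, and among them were Nkg7 (-2.81), Ncr1 (-2.07) and Gzma (-1.75).

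Basophil, mast cell and platelet genes were lower, and red cell genes were not. Of 13 mast cell, basophil and eosinophil genes 7 fell, among them Hdc, which makes histamine, at 36.3, 62.8 and 51.4 in WT and 5.15, 10.9 and 5.05 in VitC+/- (log2 fold change -2.80, adjusted p = 0.000514), and Fcer1a, of the IgE receptor, with -2.76. The eosinophil genes Prg2, Epx and Ear1 were low in every VitC+/- library but had single high libraries in WT and VitC+ and did not pass. Of 17 megakaryocyte genes 8 fell against WT and 8 against VitC+, and all 17 were below 0 against WT. Treml1, of platelet granules, was at 9.12, 12.4 and 23.1 in WT, 15.6, 18.7 and 25.1 in VitC+ and 3.05, 4.09 and 2.53 in VitC+/- (log2 fold change -1.96, adjusted p = 0.00277). The megakaryocyte count against WT was 3 without the library labelled WT replicate 3 or VitC+/- replicate 1 and 5 without VitC+ replicate 2 or VitC+/- replicate 3, and against VitC+ it was 4 without VitC+/- replicate 2 or VitC+/- replicate 3 and 1 without VitC+ replicate 2, VitC+ replicate 3 or VitC+/- replicate 1. With RPKM as deposited the counts were 4 and 3, and with the 6 WT and VitC+/- libraries alone 4 fell against WT.

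Of 23 erythroid genes 8 rose and none fell against WT (median 0.61), and 6 rose against VitC+. Slc4a1, the anion exchanger band 3, was at 29.5, 72.7 and 48.9 in WT, 42.6, 39.3 and 52.6 in VitC+ and 143, 156 and 93.99 in VitC+/- (log2 fold change 1.43, adjusted p = 0.0089). Rhag and Ank1, of the red cell membrane, rose by 1.66 and 1.58, and Fech, the last enzyme of haem synthesis, by 1.004. The globin Hbb-bs was at 2791, 1444 and 2284 in WT and 3666, 3625 and 1715 in VitC+/- and did not pass (0.44, adjusted p = 0.42). The count was 5 without WT replicate 1, the library labelled WT replicate 3, VitC+/- replicate 1 or VitC+/- replicate 2, and that against VitC+ was 2 without VitC+ replicate 1, 1 without VitC+ replicate 2 and 0 without VitC+/- replicate 1. Quantile normalization gave 14 rises and 1 fall against WT, and no filter on low values 5 rises. Without VitC+ replicate 2 there was 1 fall. Of 9 stem and progenitor genes tested, Cd48 fell (-1.87) and Hoxa9 rose (0.87), with 2 falls without WT replicate 2 or VitC+/- replicate 3. The shares lower and higher than WT over all genes tested were 15.9% and 15.3%.

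Genes that interferon turns on were lower in VitC+/- than in both WT and VitC+. Of 32 tested, 25 fell and none rose against WT (median -1.41), and 22 fell against VitC+ (median -1.29), while WT and VitC+ differed by a median of -0.21 with none past the threshold. Left-out libraries gave 20 to 25 falls against WT and 14 to 24 against VitC+, the latter 14 without VitC+ replicate 1. Isg15, a ubiquitin-like modifier, was at 26.2, 34.2 and 32.4 in WT, 32.2, 25.9 and 26.9 in VitC+ and 6.06, 3.63 and 4.69 in VitC+/- (-2.59 ± 0.19, adjusted p = 0.000143). Oas1a, a sensor of double-stranded RNA, was at 6.04, 8.62 and 5.77 in WT, 4.65, 4.96 and 3.17 in VitC+ and 0.429, 0.226 and 0.267 in VitC+/- (-3.17 ± 0.23, adjusted p = 0.000142). In both genes the 6 control libraries lay above all 3 VitC+/- libraries.

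Factors that type I interferon uses to turn on genes bind an element with pairs of GAAA. The letters GAAANNGAAA were searched on both strands, with overlapping matches counted, in the 250 bases before the start of each gene in the RefSeq promoters of GRCm38.p6. They were present in 3.46% of 27025 promoters, in 3.27% of the 8904 promoters of genes tested here and in 14 of 23 promoters of the interferon list (60.9%). Within the list they were present in 8 of 17 genes that fell against WT (47.1%) and in 6 of 6 that did not, so presence of these letters did not separate the genes that fell. Of those that fell, 4 are shown because they carry the motif and differ in level, with the 150 bases up to the start, 5′ to 3′ on the strand of the gene and the motif, or its reverse complement, in capitals. They are Isg15 (chr4:156200819-156200968, minus strand), Oas1a (chr5:120907526-120907675, minus strand), Ifit1 (chr19:34640739-34640888, plus strand) and Oas3 (chr5:120777660-120777809, minus strand).
Isg15: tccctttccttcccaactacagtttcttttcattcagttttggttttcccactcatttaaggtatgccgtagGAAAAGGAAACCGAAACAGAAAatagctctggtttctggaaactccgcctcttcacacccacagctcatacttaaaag
Oas1a: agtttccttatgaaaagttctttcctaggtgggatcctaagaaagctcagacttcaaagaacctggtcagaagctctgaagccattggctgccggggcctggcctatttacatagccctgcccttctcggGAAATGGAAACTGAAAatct
Ifit1: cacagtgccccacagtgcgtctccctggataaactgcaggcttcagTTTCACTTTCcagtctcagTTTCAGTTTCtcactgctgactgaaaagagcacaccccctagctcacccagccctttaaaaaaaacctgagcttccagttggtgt
Oas3: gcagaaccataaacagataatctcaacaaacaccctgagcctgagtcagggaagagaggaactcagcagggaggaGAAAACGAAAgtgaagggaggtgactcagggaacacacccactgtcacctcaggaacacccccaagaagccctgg

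The falls were steepest for Oas2 (-3.25), Oas1a, Ifi27l2a (-3.10), Oasl2 (-2.63) and Isg15. Irf7, the factor that amplifies the response, was at 16.6, 19.2 and 17.4 in WT, 18.96, 13.8 and 13.4 in VitC+ and 3.17, 2.998 and 2.41 in VitC+/- (log2 fold change -2.45, adjusted p = 0.000132). Ifit1, whose promoter holds the motif at 2 sites, was at 2.26, 4.25 and 3.39 in WT and 0.763, 0.323 and 0.787 in VitC+/- (log2 fold change -1.75, adjusted p = 0.00244), and Oas3, a relative of Oas1a, at 4.89, 9.57 and 6.82 and 1.21, 0.704 and 0.701 (log2 fold change -2.44, adjusted p = 0.000456). Stat2, which carries the signal, had 0.09 and did not pass (adjusted p = 0.807). The other 6 genes that did not pass were Mx2 (-0.83), Gbp3 (-0.59), Igtp (-0.39), Irgm1 (-0.06), Cxcl10 (0.17) and Gbp2 (0.31). Neutrophil, monocyte and B-cell genes fell in the same libraries, and their part in these falls was not tested.

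All 10 MHC class II genes fell against WT (median -1.16) and 8 against VitC+. Cd74, the invariant chain that guides class II molecules, was at 238, 192 and 128 in WT, 246, 188 and 261 in VitC+ and 82.8, 87.7 and 78.3 in VitC+/- (log2 fold change -1.12, adjusted p = 0.00655), and Ciita, the switch of class II expression, had -0.77 (adjusted p = 0.0464). The 3 VitC+/- libraries were below all WT libraries for all 10 genes, beside 21.3% of all genes tested. The count was 6 without VitC+/- replicate 1, and that against VitC+ was 4 without VitC+ replicate 1 or VitC+ replicate 3 and 3 without VitC+/- replicate 1. Genes of B cells and monocytes, which also carry class II molecules, fell as given above, and their part was not tested.

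Genes that glucocorticoids turn on had the highest median of the lists. Of 16 tested, 15 rose against WT and 1 fell, with a median of 2.20, and 12 rose against VitC+, with a median of 1.49. The one that fell was Lcn2 (-1.72), which neutrophils carry in secondary granules. Sgk1, a kinase of salt transport, was at 6.92, 6.27 and 7.19 in WT, 8.69, 8.66 and 9.05 in VitC+ and 25.7, 38.1 and 27.4 in VitC+/- (2.06 ± 0.16, adjusted p = 0.000143), and rose by 1.71 against VitC+ (adjusted p = 0.000673). Per1, of the circadian clock, was at 7.16, 3.21 and 3.28 in WT, 13.5, 5.18 and 5.46 in VitC+ and 48.7, 51.8 and 21.5 in VitC+/- (3.02 ± 0.45, adjusted p = 0.00203). Fkbp5, which lowers the receptor's affinity for hormone, was at 15.2, 26.04 and 19.7 in WT, 11.7, 15.5 and 10.8 in VitC+ and 46.2, 75.9 and 36.98 in VitC+/- (log2 fold change 1.33, adjusted p = 0.00811), so that VitC+ was the lowest group.

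In each of these 3 genes every VitC+/- library was above all 6 control libraries. Zbtb16 and Serpina3n, close to 0 in most control libraries, rose by 2.45 and 3.70, with 1.11, 0.346 and 0.300 in WT and 14.8, 35.4 and 3.84 in VitC+/- for the latter. Metallothionein genes Mt1 and Mt2, which metals also turn on, rose by 1.82 and 2.72. Ddit4 and Cdkn1a, which many stresses turn on, rose by 3.25 and 2.34. Left-out libraries gave 13 to 15 rises against WT. Against VitC+ they gave 7 rises without VitC+/- replicate 1 and at least 8 otherwise, and without the library labelled WT replicate 3 Lcn2 did not pass.

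The palindrome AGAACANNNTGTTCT, a form of the element that the glucocorticoid receptor binds, was present in 1 of 8904 promoters of genes tested (0.0112%), that of Sgk1, and so in 1 of the 14 promoters of the list (7.14%). It reads alike on both strands. The promoter is shown for this reason, with the 200 bases up to the start on the plus strand (chr10:21993690-21993889, GRCm38.p6) and the palindrome in capitals.
Sgk1: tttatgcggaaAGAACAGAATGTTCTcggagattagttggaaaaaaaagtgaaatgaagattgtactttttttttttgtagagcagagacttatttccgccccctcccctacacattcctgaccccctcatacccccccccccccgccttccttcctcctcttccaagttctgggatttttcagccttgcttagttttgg

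**Figure D3:**
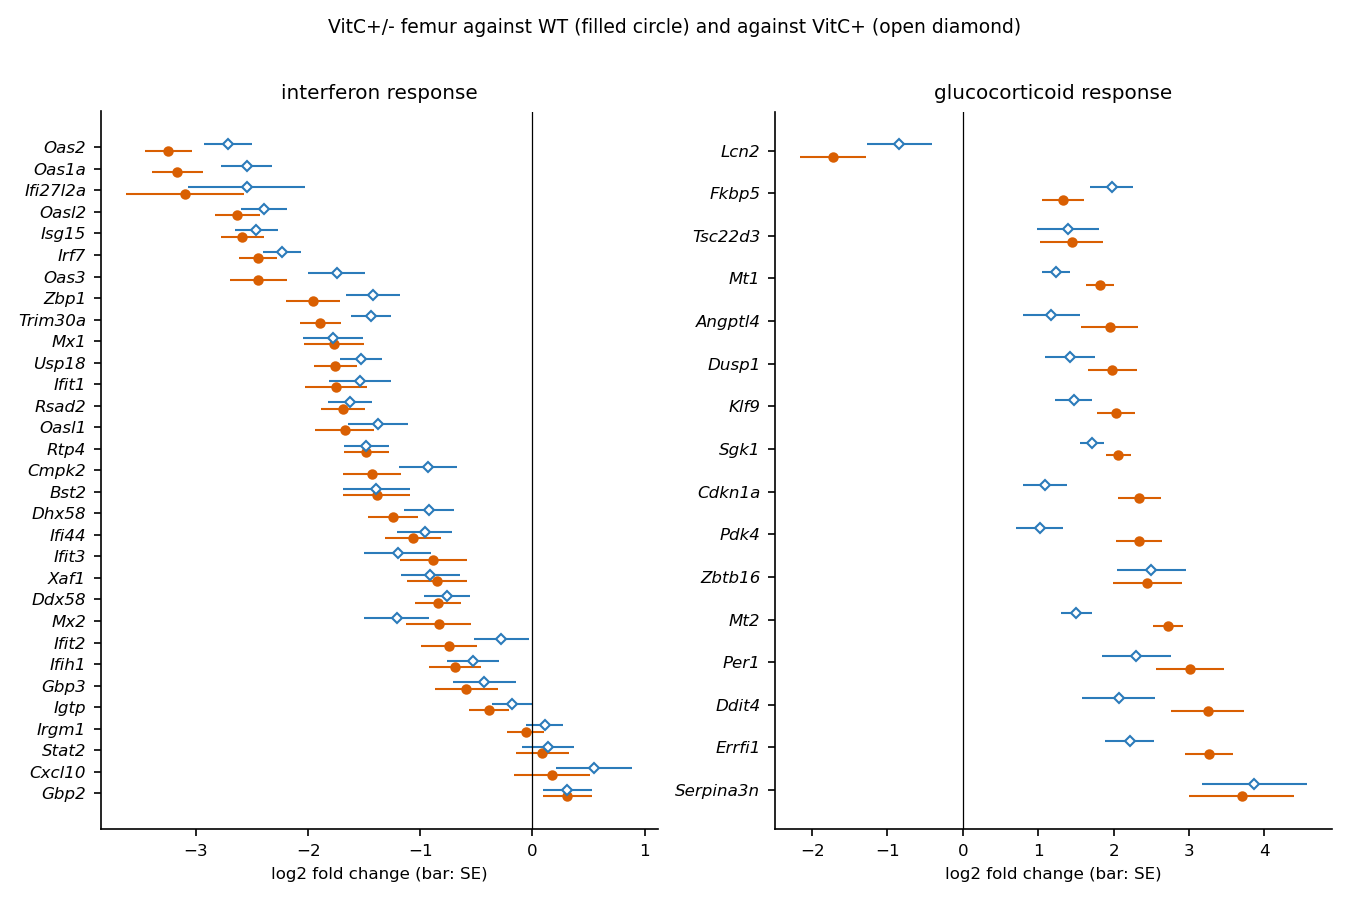
Log2 fold change with its SE for tested genes of the interferon response list (left, 1 gene not shown) and the glucocorticoid response list (right), filled circles for VitC+/- against WT and open diamonds for VitC+/- against VitC+. Most interferon genes lie left of 0 in both comparisons, down to -3.25 for Oas2, and all glucocorticoid genes but Lcn2 lie right of 0 in both.

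Adipocyte genes were higher and were highest in VitC+/- replicate 2. Of 20 tested, 10 rose and none fell against WT, and without that library 7 rose and 2 fell. The summed level was 276 to 315 in WT and 506 to 3584 in VitC+/-. Scd1, the desaturase that makes oleate, was at 8.97, 3.15 and 5.35 in WT, 12.6, 7.29 and 27.1 in VitC+ and 32.8, 715 and 58.2 in VitC+/- (log2 fold change 4.25, adjusted p = 0.0116). Cfd, adipsin, was at 4.41, 1.70 and 8.38 in WT, 10.3, 8.21 and 49.2 in VitC+ and 28.1, 637 and 43.1 in VitC+/- (log2 fold change 4.34, adjusted p = 0.0177), and its VitC+ and VitC+/- libraries overlapped (2.47, adjusted p = 0.165). Adipoq, adiponectin, was at 28.8, 20.2 and 14.8 in WT and 16.9, 83.4 and 22.2 in VitC+/- and did not pass (0.61, adjusted p = 0.43). The count was 5 without the library labelled WT replicate 3, and without WT replicate 1 7 rose and 2 fell.

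Endothelial genes were higher in VitC+/- than in WT, and none passed against VitC+. Of 16 tested 8 rose against WT (median 0.70), where left-out libraries gave 6 to 11, and the median against VitC+ was 0.03. Plvap, of the diaphragms of fenestrated vessels, was at 17.6, 14.5 and 17.1 in WT, 31.5, 26.3 and 38.5 in VitC+ and 41.3, 48.5 and 41.1 in VitC+/- (log2 fold change 1.39, adjusted p = 0.000752), with 0.45 against VitC+ (adjusted p = 0.0936). Emcn, endomucin, was at 9.93, 8.86 and 8.34 in WT, 19.7, 15.9 and 19.8 in VitC+ and 20.8, 16.1 and 26.95 in VitC+/- (log2 fold change 1.16, adjusted p = 0.00277), with 0.18 against VitC+ (adjusted p = 0.571). In both genes all 6 knockout libraries were above the WT libraries. VitC+ against WT gave a median of 0.87 for the list with no gene past the threshold, and 6 without WT replicate 1.

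Genes of the cell cycle were lower than in WT to a smaller degree. Of 24, 10 fell against WT (median -0.61), none of them against VitC+ (median 0.04). The count was 0 without the library labelled WT replicate 3 or VitC+/- replicate 3, 3 without WT replicate 2, 6 without VitC+/- replicate 2, 17 without WT replicate 1, and 0 with RPKM as deposited. Pcna, the clamp of DNA polymerase, was at 166, 231 and 228 in WT, 113, 170.3 and 146 in VitC+ and 145, 118 and 113 in VitC+/- (log2 fold change -0.72, adjusted p = 0.0232), and Mki67, a mark of dividing cells, had -0.33 (adjusted p = 0.37).

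Over all genes tested 15.3% were higher and 15.9% lower than WT, and the counts that follow stand beside these shares. Hypoxia targets were mixed, with 5 higher and 2 lower of 20. The count of falls was 1 without WT replicate 2, the library labelled WT replicate 3, VitC+ replicate 3, VitC+/- replicate 1 or VitC+/- replicate 2. Bnip3, of mitophagy, was at 10.4, 6.58 and 9.09 in WT, 12.5, 10.9 and 12.2 in VitC+ and 31.7, 81.6 and 36.1 in VitC+/- (log2 fold change 2.35, adjusted p = 0.0014), and Vegfa, the growth factor of vessels, at 9.75, 12.998 and 11.02 and 19.6, 42.2 and 38.3 in WT and VitC+/- (log2 fold change 1.46, adjusted p = 0.00451), whereas Pgk1, Ldha and Aldoa of glycolysis had -0.51, -0.19 and -0.21 and did not pass. Among demethylases that need VitC 4 of 18 rose against WT, Kdm3a (1.16), Kdm4b (1.05), Tet2 (0.63) and Kdm4a (0.45), and none fell. The demethylase count was 7 without WT replicate 2 and 2, with 1 fall, without WT replicate 1, and 2 without the library labelled WT replicate 3, VitC+/- replicate 1 or VitC+/- replicate 2. Of 15 antioxidant genes 4 fell and 3 rose, with Hmox1, haem oxygenase, at 29.1, 21.8 and 18.9 in WT and 53.3, 38.6 and 151 in VitC+/- (log2 fold change 1.55, adjusted p = 0.0287) and Gpx1, a selenium peroxidase, at -0.83. The antioxidant rises numbered 1 without WT replicate 2, the library labelled WT replicate 3 or VitC+/- replicate 1. Of 19 genes of endoplasmic reticulum stress 6 fell and 1 rose, Trib3 with 1.38, and the chaperone Hspa5 had -0.41 (adjusted p = 0.282). The rise of Trib3 did not pass without WT replicate 2, the library labelled WT replicate 3, VitC+/- replicate 1 or VitC+/- replicate 3. Of 15 iron genes 4 rose and 2 fell, and the rises numbered 2 without the library labelled WT replicate 3 or VitC+/- replicate 1. Of 22 genes of mitochondrial respiration 1 rose, Ndufv1 with 0.35, and none did when any library but VitC+/- replicate 3 was left out, while 2 fell without WT replicate 2. None of 15 skeletal muscle genes passed, with summed levels of 15.5 to 1203 in WT and 19.1 to 774 in VitC+/-.

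**Figure D4:**
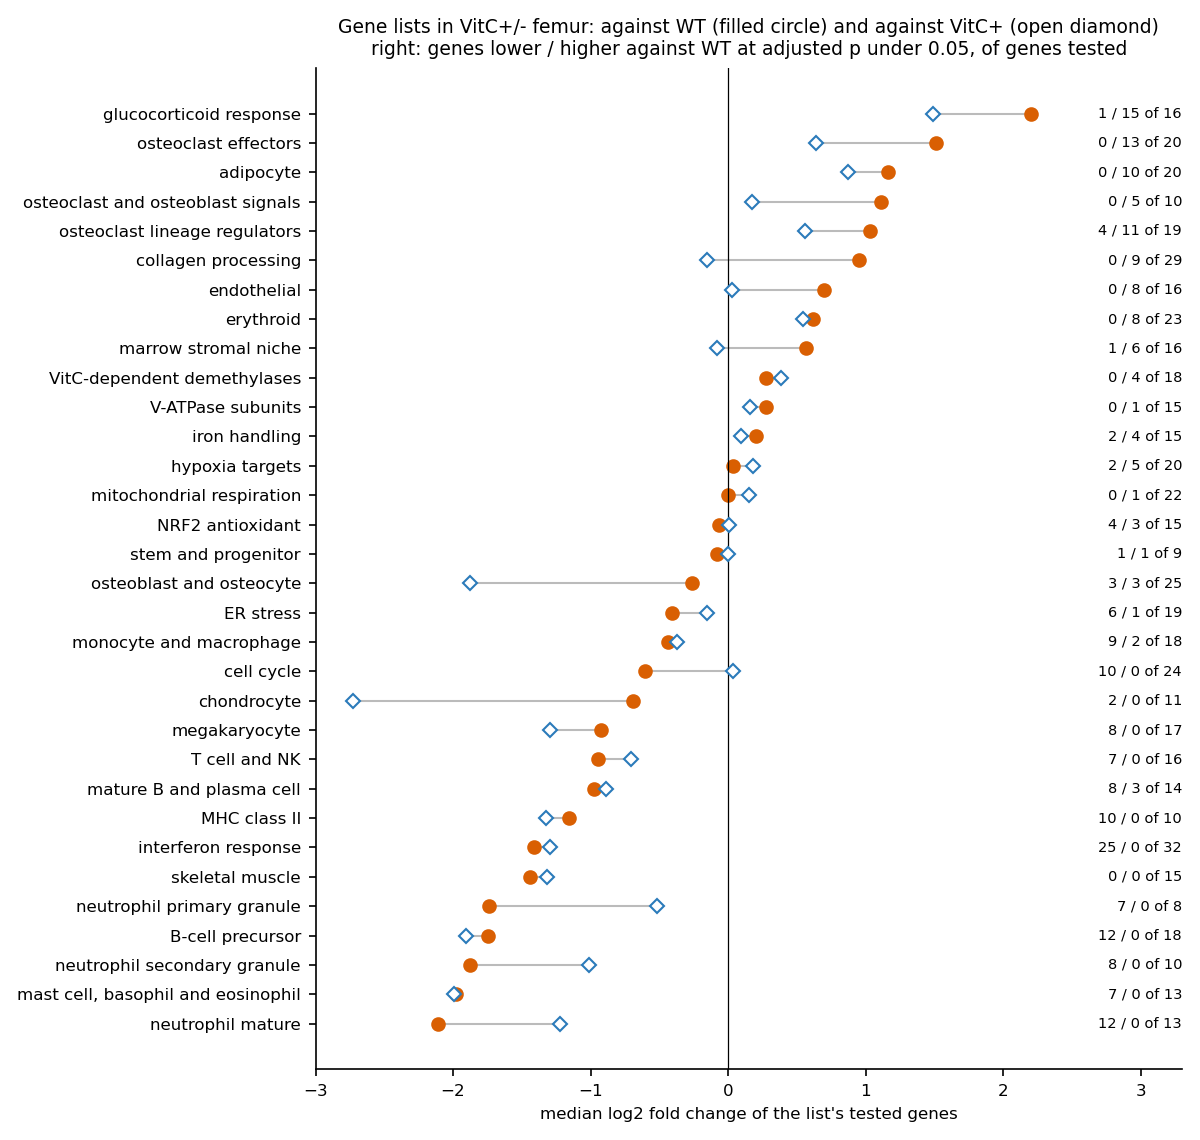
Median log2 fold change (horizontal axis) of the tested genes of each list, filled circles for VitC+/- against WT and open diamonds for VitC+/- against VitC+, with the counts lower and higher against WT at the right. The pair of marks is close together for B-cell precursor, interferon, MHC class II and erythroid lists and far apart for osteoblast, chondrocyte, collagen and neutrophil primary granule lists. It is also apart, though less so, for lists that include osteoclast effectors, osteoclast signals, endothelial, glucocorticoid and the other neutrophil genes.

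Which differences from WT were not found against supplemented knockout mice was asked next. Of the 2002 genes lower than WT, 722 were also lower than VitC+ and 1280 were not past the threshold there (10.2% of all genes tested). Of the 1929 higher genes, 618 were also higher than VitC+ and 1311 were not (10.4%). Together these 2591 genes were 1490 without the library labelled WT replicate 3. The 2 comparisons share the VitC+/- libraries, so the test of their difference is that of VitC+ against WT. In it no gene passed limma with adjustment, the smallest adjusted p was 0.0674, and 2767 genes had an unadjusted p under 0.05. Without WT replicate 1, the shallowest library, 604 genes passed, 96 lower and 508 higher in VitC+. For a single gene, then, passing against WT and not against VitC+ does not by itself show that the 2 differences are unequal.

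By a stricter reading, 746 lower and 777 higher genes had an unadjusted p of at least 0.05 against VitC+. The 8 largest falls among them were Fcnb, Prss57, Mgst2, Elane, Ngp, Pglyrp1, Prtn3 and Sdf2l1, from -1.94 to -1.75 against WT. Elane, Prtn3, Prss57 and Ngp are granule proteins of neutrophils, Pglyrp1 binds bacterial wall in their granules and Fcnb, a ficolin, recognizes sugars on microbes. Prtn3 was at 1337, 2157 and 1942 in WT, 525, 1119 and 685 in VitC+ and 565, 796 and 299.6 in VitC+/-, with -1.79 against WT, -0.53 against VitC+ and -1.27 for VitC+ against WT (adjusted p = 0.128). The 8 largest rises were Cfd, Anxa8, Col6a2, Timp1, Col5a1, Cyr61, Lox and Itga11. Of these, 6 are matrix or matrix-bound proteins or their receptor. Timp1, an inhibitor of matrix proteases, was at 47.2, 9.63 and 22.6 in WT, 79.6, 49.2 and 75.2 in VitC+ and 218, 57.8 and 412 in VitC+/- (log2 fold change 2.96, adjusted p = 0.0131), with 1.37 against VitC+ (adjusted p = 0.219).

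Over all genes, 63.9% of those lower and 68% of those higher than WT did not pass against VitC+, and the lists are set beside these shares. Among lists with at least 2 falls, all falls of primary granules (7 of 7), the cell cycle (10 of 10), antioxidant genes (4 of 4) and hypoxia targets (2 of 2) did not pass there. The counts were 6 of 8 for secondary granules, 4 of 6 for endoplasmic reticulum stress, close to the share over all genes, and 6 of 12 for mature neutrophils, below it. Among the rises the counts were 9 of 9 for collagen, 8 of 8 for endothelial, 4 of 4 for iron, 5 of 6 for stromal niche and 8 of 10 for adipocyte genes, and 8 of 13 for osteoclast effectors, close to the share over all genes. Below the share lay the falls of B-cell precursor (1 of 12), interferon (4 of 25) and mature B and plasma cell genes (0 of 8). The falls of osteoblast and osteocyte (0 of 3) and chondrocyte genes (0 of 2) lay below it too. So did those of monocyte (2 of 9), megakaryocyte (2 of 8), MHC class II (2 of 10), T cell and NK (3 of 7) and mast cell genes (3 of 7). T cell and NK falls against VitC+, 4 with all libraries, numbered 0 without VitC+ replicate 2, VitC+ replicate 3 or VitC+/- replicate 1. Mature B and plasma cell falls there went from 8 to 3 without each of these in turn. Monocyte falls there went from 7 to 3 without VitC+ replicate 2 or VitC+/- replicate 1. Mast cell falls there went from 4 to 2 without VitC+/- replicate 1. Among rises, 3 of 15 of glucocorticoid, 4 of 11 of osteoclast lineage and 2 of 8 of erythroid genes did not pass against VitC+. For hypoxia targets and demethylases these counts were 1 of 5 and 1 of 4. The osteoclast effectors in this class were Acp5, Mmp14, Atp6v0d2, Itgav, Ocstamp, Dcstamp, Siglec15 and Slc4a2, while Ctsk, Mmp9, Clcn7, Tcirg1 and Calcr passed against both. The effector count against VitC+, 5, was 1 without VitC+/- replicate 1, 2 without VitC+ replicate 2, 3 without VitC+ replicate 3 and 9 without VitC+/- replicate 2.

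A further set was picked for a small difference, or one of opposite sign, between the 2 knockout groups. A like level in these groups is thus the rule and not a result. Among genes within 0.25 of 0 on the log2 scale, or of opposite sign, against VitC+, the 8 largest falls against WT were Cmtm7, Tkt, Tspo, Cst7, Adap1, Cdca7l, Alox5ap and Vav1. Alox5ap, which hands arachidonate to 5-lipoxygenase, was at 312, 304 and 340.4 in WT, 164, 213 and 151 in VitC+ and 162, 261 and 94.9 in VitC+/- (-1.001 and -0.13). Tkt, transketolase, was at 217, 243 and 245 in WT, 98.3, 157 and 117 in VitC+ and 112, 147 and 69.6 in VitC+/- (-1.16 and -0.22). The 8 largest rises were Ibsp, Scarf2, Ccdc80, Ltbp3, Atp6v0d2, Tsku, Tnc and Mxra8. Ltbp3, which holds latent TGF-beta in matrix, was at 7.79, 4.19 and 4.97 in WT, 19.9, 13.03 and 18.995 in VitC+ and 17.1, 15.6 and 19.5 in VitC+/-. All 6 knockout libraries were above the 3 WT libraries, with 1.58 and 0.02 against WT and VitC+ and 1.55 for VitC+ against WT (adjusted p = 0.0674).

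Of the genes past the threshold against WT, 28 of the lower and 114 of the higher had the opposite sign against VitC+, and 2 of these passed there in the opposite direction. Of these 2, Fibin was at 2.49, 1.85 and 3.41 in WT, 9.36, 7.93 and 14.3 in VitC+ and 4.12, 6.30 and 4.61 in VitC+/-, so that VitC+/- lay between WT and VitC+.

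Among the 12 largest falls against WT by the rule for named genes, 7 were outside the lists. Prss34, a basophil protease, was at 46.96, 40.1 and 52.6 in WT, 22.7, 36.9 and 25.9 in VitC+ and 2.48, 3.68 and 3.45 in VitC+/- (-3.67 ± 0.21, adjusted p = 0.000108). Il1f9, which encodes interleukin 36 gamma, was at 23.6, 20.2 and 25.9 in WT and 1.29, 1.94 and 1.47 in VitC+/- (log2 fold change -3.53, adjusted p = 0.000108), and Chi3l1, a chitinase-like protein of neutrophils, at 44.2, 99.2 and 71.8 and 5.20, 8.44 and 3.15 (log2 fold change -3.59, adjusted p = 0.000416). Mgl2, a lectin of macrophages and dendritic cells, was at 10.2, 18.9 and 11.2 and 0.577, 1.32 and 0.611 (log2 fold change -3.37, adjusted p = 0.000173), Plbd1 at 64.3, 75.3 and 70.5 and 7.53, 10.9 and 5.99 (log2 fold change -3.07, adjusted p = 0.000108), and Ly6d and Ankrd22 had -3.17 and -3.13. Every VitC+/- library was also below every VitC+ library in these genes, whereas lying below every WT library is part of the rule.

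The 12 largest rises held 5 fat genes, Cfd, Scd1, Cidec, Mrap and Plin4, which like Serpina3n were highest in VitC+/- replicate 2, and 6 genes highest in VitC+/- replicate 3. Thbs2, a thrombospondin of matrix, was at 5.45, 0.987 and 2.38 in WT and 35.5, 17.5 and 98.8 in VitC+/- (log2 fold change 3.77, adjusted p = 0.00313), and Tnn, tenascin W of the bone surface, at 2.97, 0.0842 and 1.17 and 27.4, 3.97 and 89.6 (log2 fold change 3.90, adjusted p = 0.0159). Hbegf, an EGF receptor ligand, was at 1.31, 0.553 and 0.581 and 11.6, 6.39 and 29.2 (log2 fold change 3.41, adjusted p = 0.00132), and Kcne4, a subunit of potassium channels, had 3.63. Cdsn, a protein of skin desmosomes, was at 0, 0.0769 and 0.0584 in WT, 0.130, 0.0852 and 0.220 in VitC+ and 16.4, 1.69 and 57.6 in VitC+/- (log2 fold change 4.57, adjusted p = 0.00634). The VitC+/- libraries of these genes differed among themselves by more than they did for Tnfsf11 or Sgk1. That the lowest of them was above every WT library is part of the rule for named genes and not a result.

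**Figure D5:**
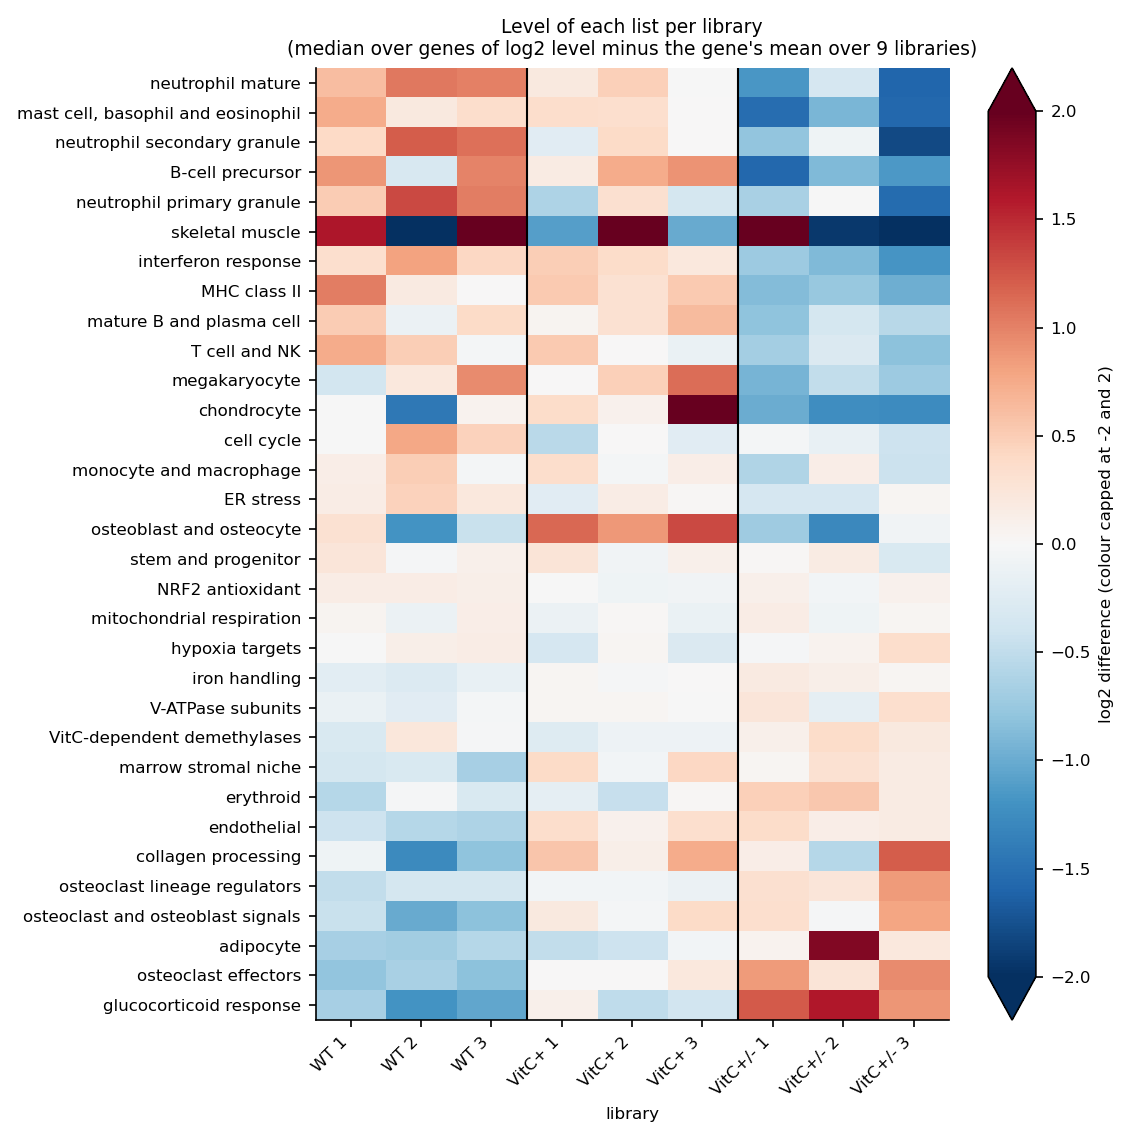
Level of each gene list in each of the 9 libraries, as the median over genes of the log2 level minus the mean of that gene over all libraries, with red above and blue below the mean and the colour capped at -2 and 2. VitC+/- columns are red for glucocorticoid and osteoclast effector lists and blue for mature neutrophil and B-cell precursor lists, VitC+/- replicate 2 stands out for adipocyte genes, and the skeletal muscle row changes by library within every group.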

How the data were processed

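RNA-seq was performed on femurs of WT, VitC+ and VitC+/- mice in triplicate. The RPKM values were deposited by the authors per library and gene, made from reads that, per the submitters' processing notes, passed through FastQC 0.72, Trim Galore 0.4.3.1, STAR 2.6.0b-1 and featureCounts 1.6.3 on mm10, with DESeq2 2.11.40.2 also listed. Counts were not used here, so a count model was not run. Depth was read from the steps between low RPKM values, of which 93.4% to 94.5% per library were whole reads within 0.1 read.

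The members and gene lists were chosen with earlier results of these data known. Of 23358 entries, 69 under 26 repeated names were dropped, and 12571 genes reaching RPKM 1 in 3 or more libraries entered the test. For each library a factor from the median of ratios (0.754 to 1.10) scaled RPKM, and log2(value + 0.5) was fitted with limma 3.58.1 (limma-trend, R 4.3.3) over all 9 libraries, with Benjamini-Hochberg adjustment over all genes tested and a threshold of 0.05, two-sided. Of 561 genes in 33 lists 557 were matched and 530 tested, and genes in several lists count in each. Named genes were the 12 largest falls and rises against WT of significant genes whose libraries were apart and whose higher group averaged 10 or more, the 8 largest in each direction that were not found, or were near 0, against VitC+, and list members whose role is given. The procedure was tested on simulated data in which each gene had the same spread in all groups, so unequal spreads between groups were not covered. No column of per-sample values was left out. A few genes that enter the counts are not reported here by name. Alternatives were RPKM as deposited, quantile normalization, other filters and pseudocounts, the 6 libraries alone, a replicate block, array weights, repeated names kept, and each library left out. Promoters came from RefSeq (GRCm38.p6), without those of chromosome 18. Tables and figures were made with Python 3.11.15, pandas 2.3.3, numpy 2.4.6 and matplotlib 3.10.9.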

Additional observations from a re-analysis of the deposited data

How the results depend on the processing

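Of 291 single genes past the threshold against WT, compared under the alternatives 4590 times, 4082 comparisons kept direction and call, 508 kept the direction and lost the call, and 0 reversed. The total of 3931 genes against WT lay between 2712 and 4464 under the alternatives that kept all libraries of the comparison, and between 2273 and 4114 with 1 library left out. Genes lower than WT numbered 1151 with RPKM as deposited and 1140 to 2140 with 1 library left out, and genes higher numbered 1260 with the filter at RPKM 5, where fewer genes were tested, and 1133 to 1974 with 1 left out. Against VitC+, 877 genes passed with RPKM as deposited, 7668 with array weights, and 489 to 2297 with 1 library left out. For VitC+ against WT the left-out libraries gave 0 to 604 genes. Genes past the threshold against WT and not against VitC+ numbered 538 with array weights, 1523 when the unadjusted p against VitC+ had to be at least 0.05, and 1490 to 3087 with 1 library left out. The array weights did not converge, giving 0.000204 to the library labelled WT replicate 3 and 43.3 to VitC+/- replicate 1, so those counts carry little. The cause of the other changes was not tested.

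With the replicate number as a block 4464 genes passed against WT, 2180 against VitC+ and 794 for VitC+ against WT. The numbers share no source in the labels and same-numbered WT and VitC+/- libraries correlated by 0.196, 0.256 and -0.194 in their deviations from the group means, so they were not taken to pair the libraries. Not every library correlated best with its own number. How depth limits the detection of small differences in low genes was not measured.

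Some list counts against WT moved by over 1.5 times under other settings that kept all libraries. With RPKM as deposited, falls numbered 4 for megakaryocyte, 0 for cell cycle and 1 for hypoxia genes, and rises 2 for demethylases and 0 for V-ATPase and respiration. Quantile normalization gave 4 primary granule, 2 cell cycle, 1 hypoxia, 3 endoplasmic reticulum stress and 2 stem cell falls, and 14 erythroid, 8 V-ATPase and 7 respiration rises. Without a filter, rises numbered 5 for erythroid and 5 for adipocyte genes and falls 5 for megakaryocyte and 1 for hypoxia genes. With the filter at RPKM 5, where fewer genes were tested, falls numbered 2 for T cell and NK, 3 for mast cell, 15 for interferon and 6 for MHC class II genes, and rises 5 for adipocyte genes. The 6 libraries alone gave 4 megakaryocyte, 6 cell cycle and 1 hypoxia falls, and 5 adipocyte, 2 demethylase, 0 V-ATPase and 0 respiration rises. With the block, 7 osteoblast genes fell, 16 collagen genes rose and 2 adipocyte genes fell. Counts of 0 or 1 that moved by 1 are left out unless given here, as are array weights.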
